A study of Mus musculus with 6 samples.

Results

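The genes described here encode the enzymes that build cholesterol and fatty acids, together with the proteins that control them. They are 32 of the 23402 gene symbols in the deposited expression table, and all 32 were found in it. They were chosen by name as known members of these pathways, with earlier results of these data known. The sterol arm holds 17 genes, the fatty acid arm 10 and the regulators 5.

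Expression was measured by RNA sequencing of terminal ileum tissue from 6 mice aged 6 weeks, with 1 library per mouse. All had drunk water with dextran sodium sulfate (DSS) and were sampled on day 6. DSS injures the gut epithelium and is used to provoke colitis. The first group is Il17rafl/fl;Atoh1-cre+ (3 mice, titled KO and here called Cre-positive), in which Cre is driven by Atoh1, a gene of the secretory lineage of the gut epithelium. The other group is Il17rafl/fl;Atoh1-cre- (3 littermates, titled WT and here called Cre-negative), so that every animal carried floxed Il17ra, the gene of an interleukin-17 receptor subunit, and every animal received DSS. The design asks how loss of this receptor in secretory cells changes the tissue, while most cells of the ileal wall lie outside the Atoh1 lineage. The abundance unit is FPKM, fragments per kilobase of transcript scaled to library depth, which allows levels of different genes to be compared.

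Facts of the whole set bear on every value below. Il17ra in libraries labelled Cre-positive was no lower (7.45 ± 1.22 FPKM) than in those labelled Cre-negative (6.16 ± 0.324 FPKM; SD, n = 3 each), so the labels were not checked by this gene, and each direction is that of the libraries as labelled. The defining ileal genes were low in all 6 libraries beside the enterocyte gene Fabp2, at 1241 to 2947 FPKM over the 6 libraries. Their highest values were in Cre-negative 3. Fabp6, the ileal bile acid binding protein gene, ranged from 0.316 to 2.41 FPKM in Cre-positive and from 0.316 to 9.79 FPKM in Cre-negative libraries. Slc10a2, the ileal bile acid transporter gene, stayed at or under 0.391 FPKM in Cre-positive and 1.94 FPKM in Cre-negative libraries. The name terminal ileum is thus that of the labels, and these genes do not bear it out. Steps in the lowest values correspond to about 8060000 to 9460000 fragments per library. By Xist and 4 Y-linked genes, Cre-positive 1, Cre-negative 1 and Cre-negative 2 came from males and the remaining 3 libraries from females, so sex was mixed and uneven in both groups. In whole tissue, fewer cells of a type and less RNA per cell cannot be told apart.

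Cholesterol is assembled from acetyl-CoA through mevalonate, isoprenoid diphosphates and squalene to lanosterol, which is then trimmed to cholesterol. Fatty acids are built from malonyl-CoA by fatty acid synthase and are then elongated and desaturated. Both arms are driven by the SREBP transcription factors, encoded by Srebf1 and Srebf2. When sterols are scarce, Scap carries the SREBP precursors out of the endoplasmic reticulum for activation, and when sterols are plentiful the Insig proteins hold Scap back. SREBPs act at promoters together with the CCAAT-binding factor NF-Y. In the small intestine, sterol synthesis is known to be active in crypt cells, while villus enterocytes also take up dietary and biliary cholesterol.

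Start-site windows from RefSeq (build GRCm38.p6) were available for 25 of the 32 genes. In the 250 bases upstream of the outermost start, the letters CCAAT on either strand (ATTGG on the other) stood in 17 of 25 members, 68.0%, against 34.5% of the 27025 genes with such a window. By arm, they stood in 11 of 13 sterol genes, 2 of 7 fatty acid genes and 4 of 5 regulators. A longer sterol element, spelled TCACNCCAC on either strand, stood in 1 member, Hmgcs1, and in 1.03% of all genes. A match describes the letters only, and no binding was measured. The stretches below come from Hmgcs1, which holds both motifs, and from the 3 other genes with CCAAT that had the smallest p values. They are read 5′ to 3′ on the gene's strand, with matches to either motif in capitals.
Hmgcs1 (chr13:119690101-119690340, plus strand): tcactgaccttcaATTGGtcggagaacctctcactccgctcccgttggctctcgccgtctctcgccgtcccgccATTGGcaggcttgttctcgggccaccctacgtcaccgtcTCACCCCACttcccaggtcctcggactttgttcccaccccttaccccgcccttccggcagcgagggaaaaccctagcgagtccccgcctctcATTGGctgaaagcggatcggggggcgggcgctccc
Insig2 (chr1:121332590-121332755, minus strand): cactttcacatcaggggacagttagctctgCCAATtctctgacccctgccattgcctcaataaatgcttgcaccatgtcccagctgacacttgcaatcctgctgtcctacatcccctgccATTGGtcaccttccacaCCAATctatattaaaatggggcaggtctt
Srebf1 (chr11:60222713-60222777, minus strand): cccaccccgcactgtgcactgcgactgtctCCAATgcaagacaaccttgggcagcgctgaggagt
Fasn (chr11:120824572-120824667, minus strand): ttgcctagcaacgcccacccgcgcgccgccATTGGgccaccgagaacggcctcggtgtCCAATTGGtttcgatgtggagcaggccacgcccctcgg

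Hmgcs1 and Insig2 each held CCAAT 3 times. In Fasn, 2 of the 3 matches overlap in 1 palindrome, and Srebf1 held a single match.

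Across the 32 genes, the libraries labelled Cre-positive and Cre-negative did not differ past the adjusted threshold for any gene. Scd1, a stearoyl-CoA desaturase, had the largest estimate, with a mean 1.87 times as high in Cre-positive ileum. Me1, malic enzyme, had the largest estimate in the other direction. The sterol arm centred near 0, and most fatty acid genes had small positive estimates. By limma on log2(FPKM + 1), 0 of the 32 members passed an adjusted p of 0.05, as did 0% of the 12695 genes tested (each with a mean of at least 1 FPKM). At an unadjusted p under 0.05, 1 member was higher (background 2.54%) and 1 was lower (background 1.07%). These 2 members became 5 without Cre-positive 1 (Fasn, Elovl6, Scd1, Srebf2 and Insig2) and 1, Scd1, without Cre-negative 3. The shares of all genes in those fits were not computed, so a change in the background cannot be told apart. The groups did not overlap for 2 members that were higher, against 5.77% of all genes, and for 0 that were lower, against 2.60%, so the counts lay near the background. Of the members, 25 had estimates above 0, 78.1% against 58.4% of all genes tested, with a median log2 fold change of 0.08 against 0.03.

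**Figure D1:**
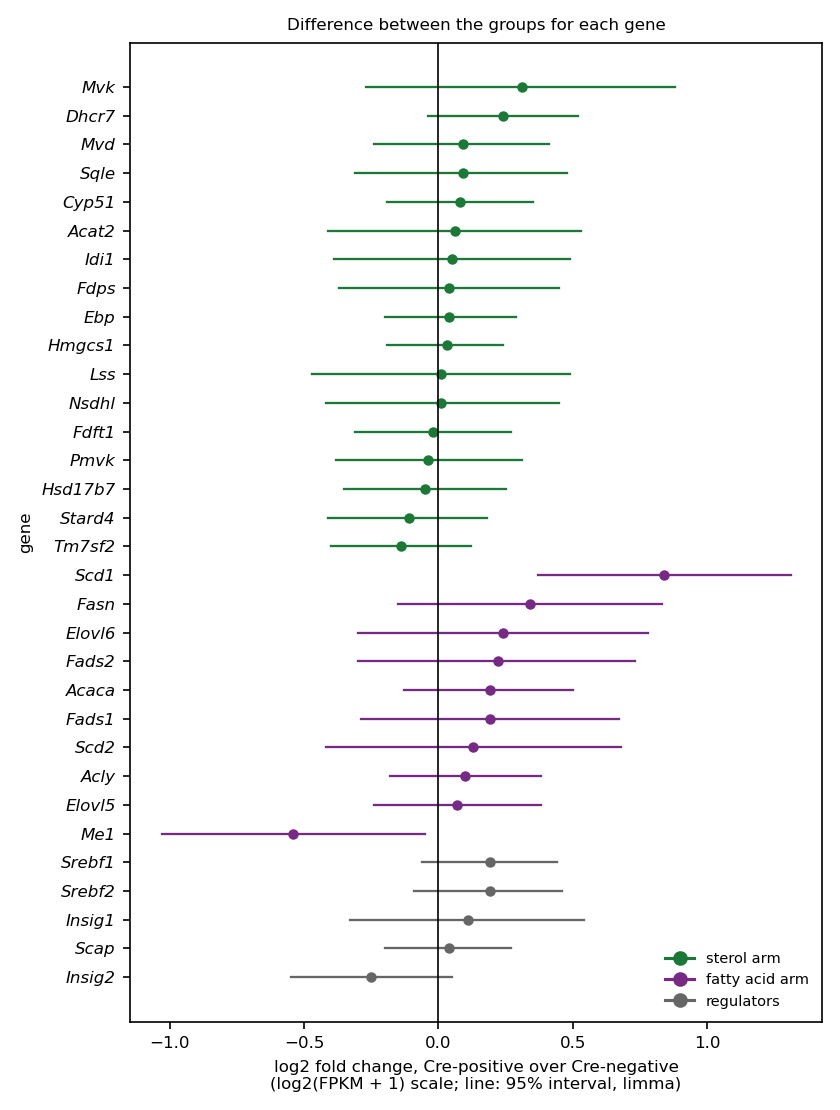
Log2 fold change of each gene, Cre-positive over Cre-negative, on the log2(FPKM + 1) scale, with 95% intervals from limma (3 libraries per group), coloured by arm. The intervals of Scd1 (0.37 to 1.31) and Me1 (-1.03 to -0.05) leave out 0, and those of the other 30 genes include it.

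Scd1 introduces the first double bond into saturated fatty acids, turning stearate into oleate. It lies on chromosome 19 from 44394455 to 44407879 (GRCm38, minus strand). Its level was 18.8, 32.0 and 25.9 FPKM in Cre-positive 1, 2 and 3, against 11.5, 12.9 and 16.7 FPKM in Cre-negative 1, 2 and 3. Every library labelled Cre-positive was above every library labelled Cre-negative, and the lowest of the first group stood close to the highest of the second. The means were 25.5 ± 6.62 FPKM in Cre-positive and 13.7 ± 2.67 FPKM in Cre-negative ileum (SD, n = 3 each). On the log2(FPKM + 1) scale the difference was 0.84 (SE 0.20), with an unadjusted p of 0.00361 and a limma adjusted p of 0.998. Permuting the 6 animals exactly (two-sided) gave p = 0.1, the smallest that 3 against 3 animals allow. Within males the difference was 0.59 on that log2 scale, and within females 0.75, each with a single animal on 1 side and so with no test.

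Scd2, the neighbouring desaturase gene on chromosome 19 (44293674 to 44306864, plus strand), carries out the same reaction and had no such difference. It measured 13.3, 14.2 and 17.7 FPKM in Cre-positive libraries, against 16.4, 17.2 and 8.81 FPKM in Cre-negative libraries. Its groups overlapped widely (log2 fold change 0.13, 95% interval -0.42 to 0.68). Scd1 exceeded Scd2 in every Cre-positive library, with Scd1-to-Scd2 ratios of 1.41, 2.25 and 1.46. In Cre-negative libraries the ratios were 0.701, 0.750 and 1.89. The ratio was thus below 1 in Cre-negative 1 and 2 alone, and Cre-negative 3 lay within the Cre-positive range. The sources used here do not state how fragments shared by similar Scd copies were divided. Of the other copies in the mouse cluster, Scd3 was listed at 0 in all 6 libraries and Scd4 was at most 0.306 FPKM in Cre-positive and 0.171 FPKM in Cre-negative libraries.

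Me1 supplies NADPH, the reducing power for fatty acid synthesis, by converting malate to pyruvate. It lies on chromosome 9 from 86581371 to 86695953 (minus strand). Its level was 5.31, 8.57 and 9.00 FPKM in Cre-positive libraries, against 8.80, 13.3 and 12.1 FPKM in Cre-negative libraries. Cre-positive 1 was the lowest of the 6, and the groups touched, since Cre-positive 3 lay just above Cre-negative 1. The log2 fold change was -0.54 (SE 0.21, unadjusted p 0.0360, limma adjusted p 0.998). The within-sex differences were -0.91 in males and -0.43 in females. The unadjusted p was 0.104 without Cre-positive 1, 0.120 without Cre-negative 2 and 0.0864 without Cre-negative 3.

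**Figure D2:**
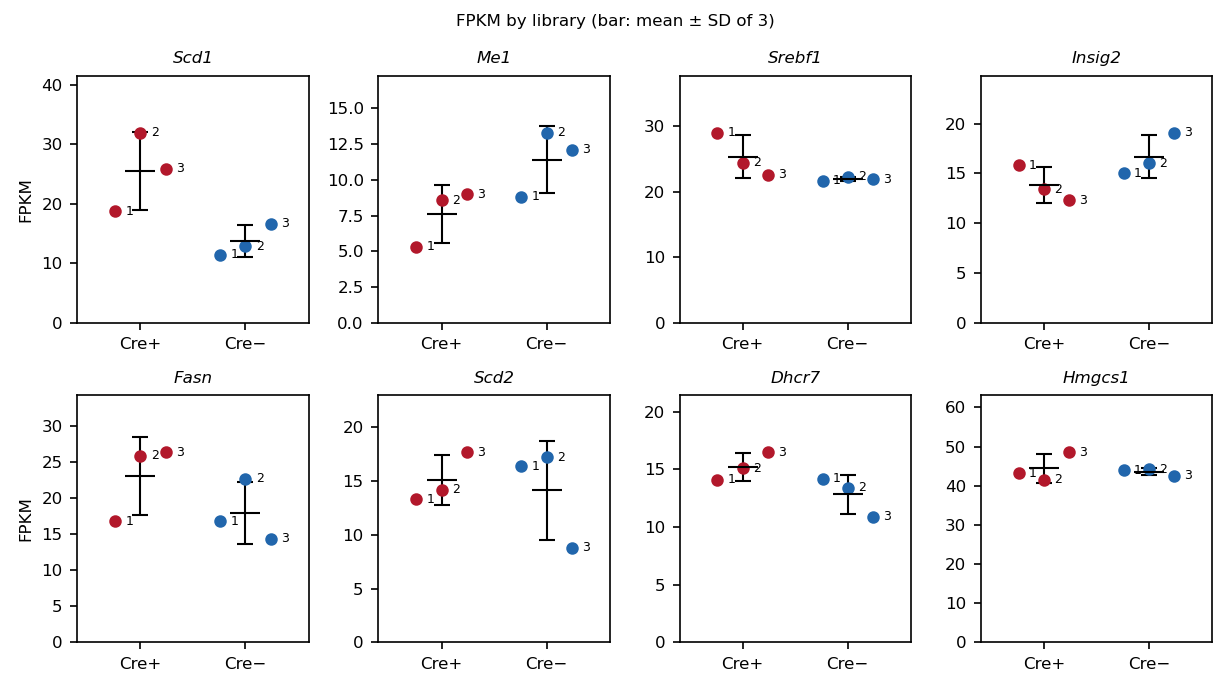
FPKM of 8 genes in each library, Cre-positive left and Cre-negative right, with points numbered by library and bars giving the mean ± SD of 3. Scd1 and Srebf1 separate the groups without overlap, while the remaining 6 genes overlap (Fasn, Scd2 and Dhcr7 were added to this plot after their values were seen).

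The enzymes that make palmitate overlapped between the groups. Acly, which cleaves citrate to give cytosolic acetyl-CoA, measured 22.6, 26.8 and 26.2 FPKM in Cre-positive and 25.6, 24.9 and 20.2 FPKM in Cre-negative libraries. Acaca, which makes malonyl-CoA, averaged 6.77 ± 0.795 FPKM in Cre-positive and 5.85 ± 0.868 FPKM in Cre-negative ileum (SD, n = 3 each). Fasn, fatty acid synthase, measured 16.8, 25.9 and 26.4 FPKM in Cre-positive libraries, against 16.8, 22.7 and 14.4 FPKM in Cre-negative libraries. Fasn had the largest positive estimate of the arm after Scd1 (log2 fold change 0.34, SE 0.21). Cre-positive 1 stood at the level of Cre-negative 1, and the interval of the difference ran from -0.15 to 0.83.

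Elongases and front-end desaturases modify the chain further. Elovl6, which lengthens palmitate, measured 20.0, 28.8 and 39.2 FPKM in Cre-positive libraries, against 27.0, 25.9 and 19.3 FPKM in Cre-negative libraries. The lowest values of both groups were nearly equal, and Cre-positive 3 was highest. Fads2, which opens polyunsaturated fatty acid synthesis, was the most abundant gene of the arm, with 39.1, 49.0 and 57.3 FPKM in Cre-positive libraries and 48.3, 49.2 and 29.1 FPKM in Cre-negative libraries. Fads1, its partner desaturase on the same chromosome, averaged 15.2 ± 2.53 FPKM in Cre-positive and 13.5 ± 3.63 FPKM in Cre-negative ileum (SD, n = 3 each). Elovl5, which lengthens polyunsaturated chains, averaged 20.7 ± 3.30 FPKM in Cre-positive and 19.6 ± 2.07 FPKM in Cre-negative ileum (SD, n = 3 each). Their log2 fold changes lay between 0.07 for Elovl5 and 0.24 for Elovl6, and each group overlapped the other.

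As an arm, the fatty acid genes had 9 of 10 estimates above 0 and a median log2 fold change of 0.19, beside 58.4% and 0.03 over all genes tested. The median rested on the Cre-negative library 3: without it, the arm's median was -0.01. Within males (Cre-positive 1 against 2 Cre-negative animals) 9 of the 10 genes had differences below 0. Within females (2 Cre-positive animals against Cre-negative 3) 9 of the 10 had differences above 0. The same shares over all genes tested were not computed. The 8 genes other than Scd1 and Me1 had both differences. For Fasn these were -0.20 in males and 0.81 in females on the log2 scale, and for Fads2 -0.31 and 0.84. Sex and the single animal on 1 side cannot be told apart here. Cre-negative 3 held the lowest of the 6 values for 8 of the 10 genes, 80.0% against 38.6% of all genes tested. The 8 genes other than Scd1 and Me1 were all lowest there, and 6 of those 8 were highest in Cre-positive 3, 75.0% against 22.9% of all genes tested. Summed over the arm, the libraries held 173, 228 and 250 FPKM in Cre-positive ileum, against 195, 210 and 152 FPKM in Cre-negative ileum, and the groups overlapped.

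The sterol arm opens with the mevalonate steps. Acat2, a thiolase that joins acetyl-CoA units, measured 8.60, 10.6 and 12.4 FPKM in Cre-positive and 13.2, 10.0 and 7.43 FPKM in Cre-negative libraries. How fragments that match both Acat2 and its close copy Acat3 were assigned is uncertain. Hmgcs1, which forms HMG-CoA on the way to mevalonate, measured 43.2, 41.6 and 48.6 FPKM in Cre-positive libraries, against 44.0, 44.2 and 42.6 FPKM in Cre-negative libraries. It was the steadiest member, its highest library only 1.17 times its lowest (log2 fold change 0.03, 95% interval -0.19 to 0.24). Mvk, mevalonate kinase, was the most variable gene of the arm, with 6.57, 6.76 and 10.0 FPKM in Cre-positive and 7.34, 7.54 and 3.81 FPKM in Cre-negative libraries. Its highest value, in Cre-positive 3, was 2.64 times its lowest, in Cre-negative 3, and the other 4 libraries lay close together. The next kinase gene, Pmvk, averaged 9.19 ± 1.82 FPKM in Cre-positive and 9.39 ± 1.06 FPKM in Cre-negative ileum, and the decarboxylase gene Mvd averaged 6.90 ± 0.987 FPKM and 6.44 ± 0.896 FPKM in the same order (SD, n = 3 each).

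The isoprenoid and squalene steps likewise differed little between the groups. Idi1, which isomerises the isoprenoid unit, averaged 5.27 ± 1.54 FPKM in Cre-positive and 4.95 ± 0.528 FPKM in Cre-negative ileum (SD, n = 3 each). Fdps, farnesyl diphosphate synthase, measured 24.3, 30.1 and 34.2 FPKM in Cre-positive and 30.8, 33.4 and 22.2 FPKM in Cre-negative libraries. Cre-positive 1 and Cre-negative 3 were the low libraries, a pattern that recurred in this arm. Fdft1, squalene synthase, averaged 9.67 ± 0.660 FPKM in Cre-positive and 9.86 ± 1.5 FPKM in Cre-negative ileum (SD, n = 3 each). Sqle, squalene epoxidase, a rate-limiting step of sterol synthesis, averaged 19.1 ± 3.31 FPKM in Cre-positive and 18.0 ± 3.55 FPKM in Cre-negative ileum (SD, n = 3 each). Lss, which closes the sterol rings, measured 5.09, 6.84 and 9.93 FPKM in Cre-positive and 7.52, 7.48 and 6.07 FPKM in Cre-negative libraries. For Lss both extremes, Cre-positive 1 and Cre-positive 3, belonged to the same group.

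The steps from lanosterol to cholesterol were measured through 6 genes. Cyp51, the lanosterol demethylase, averaged 12.3 ± 1.25 FPKM in Cre-positive and 11.6 ± 1.20 FPKM in Cre-negative ileum (SD, n = 3 each). The sterol reductase gene Tm7sf2 had the lowest estimate of the arm (log2 fold change -0.14, 95% interval -0.40 to 0.12), at 6.94 ± 0.137 FPKM in Cre-positive and 7.78 ± 1.01 FPKM in Cre-negative ileum (SD, n = 3 each). Nsdhl and Hsd17b7, which act together in removing methyl groups, ranged from 7.63 to 12.7 FPKM and from 5.05 to 6.47 FPKM over the 6 libraries, with log2 fold changes of 0.01 and -0.05. The isomerase gene Ebp ranged from 25.9 to 31.7 FPKM, with a log2 fold change of 0.04. Dhcr7, which completes cholesterol by its last reduction, averaged 15.2 ± 1.22 FPKM in Cre-positive and 12.8 ± 1.71 FPKM in Cre-negative ileum (SD, n = 3 each). Of the sterol genes it had the smallest unadjusted p, 0.0862 (log2 fold change 0.24, SE 0.12, limma adjusted p 0.998), and its groups overlapped by a narrow margin. Stard4, which moves cholesterol between membranes, was the most abundant member of all 32, at 55.1, 47.4 and 52.0 FPKM in Cre-positive and 63.1, 47.2 and 58.1 FPKM in Cre-negative libraries.

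The arm's 17 estimates ran from -0.14 for Tm7sf2 to 0.31 for Mvk, 12 of them above 0 (70.6% against 58.4% of all genes tested), with a median of 0.04 against 0.03. Without Cre-negative 3 the median was -0.08, and without Cre-positive 3 it was -0.05. Within-sex differences were below 0 in males for 15 of the 17 genes and above 0 in females for 15. The same shares over all genes tested were not computed, and the female differences rest on Cre-negative 3 alone on 1 side. Summed, the 17 genes held 261, 265 and 314 FPKM in Cre-positive libraries, against 304, 276 and 250 FPKM in Cre-negative libraries. The ranges of both groups overlapped over most of their width. No interval of the arm left out 0, which does not show equal expression: the widest, that of Mvk, ran from -0.27 to 0.88. Exons of Fdft1 and Cyp51 overlap those of Ctsb and Akap9 on the opposite strand, and the sources used here do not state whether counting used strand. Exons of Tm7sf2 and Fdps overlap those of Vps51 and Gm43738 on the same strand, so their values are uncertain.

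Of the regulators, Srebf1 separated the groups by a small margin. It measured 29.0, 24.4 and 22.6 FPKM in Cre-positive libraries, against 21.7, 22.3 and 21.9 FPKM in Cre-negative libraries. All the Cre-positive values were higher, Cre-positive 3 by very little, and the difference did not pass the test (log2 fold change 0.19, SE 0.11, unadjusted p 0.119, limma adjusted p 0.998). Srebf2, which encodes the SREBP form that mainly drives sterol genes, measured 32.5, 40.8 and 41.7 FPKM in Cre-positive and 35.2, 33.9 and 31.1 FPKM in Cre-negative libraries. Cre-positive 1 lay inside the Cre-negative range, while Cre-positive 2 and 3 lay above it. Scap measured 15.0, 15.8 and 17.5 FPKM in Cre-positive and 16.6, 16.1 and 14.5 FPKM in Cre-negative libraries, with no separation.

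The Insig genes went different ways. Insig1, itself an SREBP target, measured 18.2, 19.8 and 22.2 FPKM in Cre-positive libraries, against 24.0, 19.3 and 13.7 FPKM in Cre-negative libraries, whose range enclosed all Cre-positive values. Insig2, which is less responsive to SREBP, measured 15.8, 13.4 and 12.3 FPKM in Cre-positive libraries, against 15.0, 16.0 and 19.1 FPKM in Cre-negative libraries. Insig2 was lowest in Cre-positive 3 and highest in Cre-negative 3, the reverse of the order that 15 of the 32 members shared. The share of all genes with that order was not computed. The log2 fold change of Insig2 was -0.25 (SE 0.13, unadjusted p 0.0917, limma adjusted p 0.998). Exons of Srebf1 overlap those of Rai1 on the opposite strand.

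**Figure D3:**
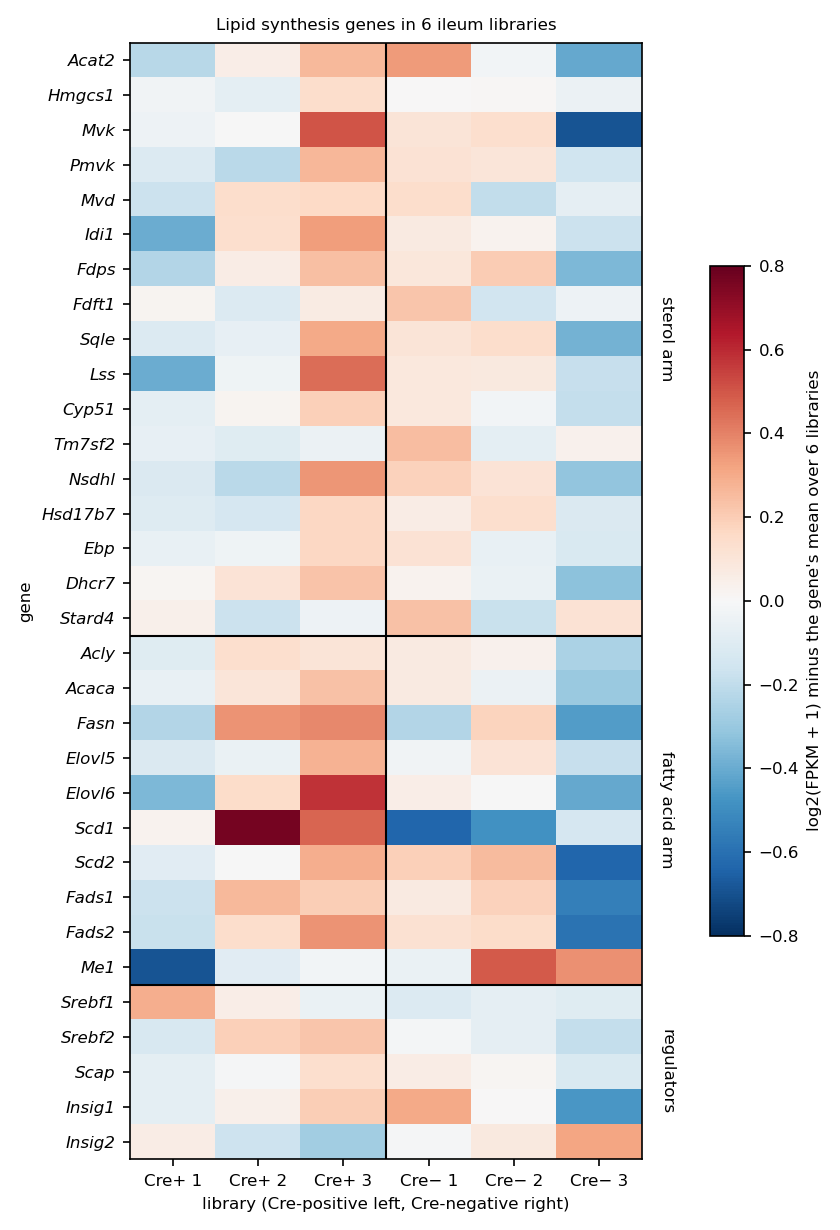
Each gene's log2(FPKM + 1) in each library minus its mean over the 6 libraries, in the order sterol arm, fatty acid arm, regulators, with Cre-positive libraries left of the line and Cre-negative right. Of the 32 rows, 21 are highest in Cre-positive 3, 65.6% against 22.9% of all genes tested. In Cre-negative 3, 19 are lowest, 59.4% against 38.6%. Both hold for 15 rows, a share that was not computed over all genes. Scd1, Me1 and Insig2 are among the rows that are neither highest in Cre-positive 3 nor lowest in Cre-negative 3.

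Many of these genes shared an order of libraries that did not follow the groups. In the sterol arm 13 of 17 genes had their highest value in Cre-positive 3, 76.5% against 22.9% of all genes tested, and 8 had their lowest in Cre-negative 3, 47.1% against 38.6%. The mean deviation of the sterol arm from its 6-library mean was -0.12, -0.04 and 0.22 in Cre-positive libraries and 0.13, 0.01 and -0.20 in Cre-negative libraries (log2 scale). That of the fatty acid arm was -0.20, 0.18 and 0.29 in Cre-positive and -0.04, 0.09 and -0.31 in Cre-negative libraries. Both arms were thus low in Cre-positive 1 and Cre-negative 3 and high in Cre-positive 3. The spread of a gene over the 6 libraries (SD on the log2 scale) had a median of 0.34 in the fatty acid arm, 0.19 in the sterol arm and 0.17 among regulators, against 0.16 over all genes tested.

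Markers of crypt and villus cells varied between the same libraries. All 8 genes listed as markers of proliferating crypt cells were tested, and their summed level ran from 152 to 236 FPKM in Cre-positive and from 126 to 205 FPKM in Cre-negative libraries. Their mean deviations were -0.23, 0.20 and 0.33 in Cre-positive and 0.14, 0.03 and -0.48 in Cre-negative libraries. Like both arms, they were low in Cre-positive 1 and Cre-negative 3 and high in Cre-positive 3. Where these markers were above 0, the sterol arm stood at -0.04 in Cre-positive 2 and the fatty acid arm at -0.04 in Cre-negative 1. The 6 enterocyte markers summed to between 3777 and 5780 FPKM in Cre-positive and between 4208 and 6217 FPKM in Cre-negative libraries. Their mean deviations were 0.31, -0.24 and -0.29 in Cre-positive and -0.20, 0.10 and 0.32 in Cre-negative libraries, with Cre-positive 1 and Cre-negative 3 high. Fabp1, 1 of the 6, was instead lowest in Cre-positive 1 (718 FPKM) and highest in Cre-negative 2 (1106 FPKM). The part of this variation in the lipid synthesis values was not tested.

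Fat tissue attached to the gut wall is rich in Scd1, Fasn and Me1. Of 8 adipocyte markers, 7 passed the filter and Lep, a defining one, was at most 0.110 FPKM in Cre-positive and 0.0321 FPKM in Cre-negative libraries. Adipoq, another defining one, measured 3.60, 3.29 and 5.28 FPKM in Cre-positive and 4.35, 4.85 and 7.84 FPKM in Cre-negative libraries. The 8 markers summed to between 96.0 and 98.5 FPKM in Cre-positive and between 101 and 236 FPKM in Cre-negative libraries. All 7 tested had estimates below 0, while 58.4% of all genes tested had estimates above 0. Of these 7 markers, 2 separated the groups without overlap (background 2.60%), and Cfd alone held 91.8 FPKM in Cre-negative 3. The part of fat tissue in the lipid synthesis values was not tested. B cell markers, summed over 6 genes, reached 62.8 and 75.3 FPKM in Cre-positive 1 and 2, against 10.4 FPKM in Cre-positive 3 and between 6.53 and 15.4 FPKM in Cre-negative libraries. Scd1 was 18.8 and 32.0 FPKM in Cre-positive 1 and 2 and 25.9 FPKM in Cre-positive 3, and the part of B cells in its level was not tested.

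**Figure D4:**
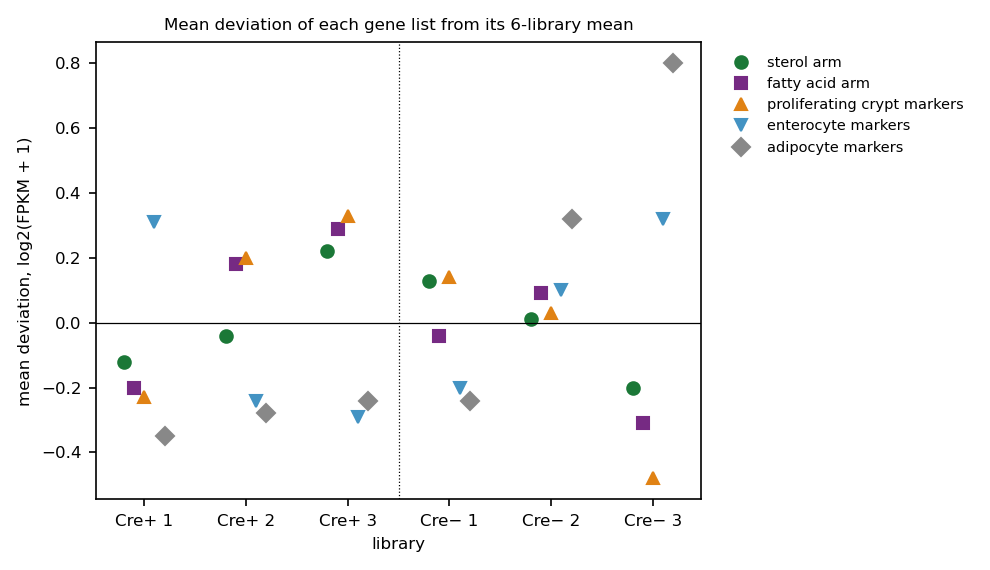
Mean deviation of each gene list from its own 6-library mean (log2(FPKM + 1) scale) in each library, Cre-positive left of the dotted line and Cre-negative right. The sterol and fatty acid arms lie at or below -0.12 in Cre-positive 1 and at or below -0.20 in Cre-negative 3, where proliferating crypt markers are also low (-0.23 and -0.48) and enterocyte markers are high (0.31 and 0.32).

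Other genes of the same pathways were taken from 2 lists of known members. Of 20 further sterol genes, all tested, 0 passed the adjusted threshold in either direction, with 9 estimates above 0 and a median of -0.02. Among the smallest unadjusted p values were those of Ggps1, a branch enzyme making geranylgeranyl diphosphate (log2 fold change -0.22), and of the sterol esterification gene Soat1 (0.15). Ggps1 measured 10.4, 9.53 and 11.0 FPKM in Cre-positive libraries, all below the 12.6, 11.1 and 12.8 FPKM of Cre-negative libraries. Of 24 further fatty acid genes, 19 were tested and 0 passed in either direction, with 10 estimates above 0 and a median of 0.05. There the smallest p values belonged to Mlxipl, which encodes the glucose-responsive factor ChREBP (log2 fold change 0.26), to Gpam, which opens glycerolipid synthesis (0.19), and to the carboxylase gene Acacb (0.18).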

How the data were processed

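The FPKM values were made and deposited by the authors as 1 table with 1 column per mouse. The submitters' processing notes name STAR, Cufflinks and Cuffnorm, and beside them FastQC, Trimmomatic, SAMtools and bedtools, with the builds GRCm38 and mm10. Versions, scaling between libraries, strand use and treatment of multi-mapping fragments are not stated there. Columns were matched to samples by genotype and number. FPKM is not a count, so the 12695 of 23402 genes averaging 1 FPKM or more were tested together on log2(FPKM + 1), which understates changes of low genes, with limma (intensity trend, two-sided, Benjamini-Hochberg, threshold 0.05). Fits ran in limma 3.58.1 under R 4.3.3, and tables and plots in matplotlib 3.10.9, scipy 1.17.1, numpy 2.4.6 and pandas 2.3.3 under Python 3.11.15.

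Depth was estimated from steps in low values of genes with 1 transcript in GENCODE (GRCm38), from which the coordinates come. Members rested on means of about 98 (Tm7sf2) to 2448 (Stard4) fragments, a counting error of 10.1% to 2.02%. The fit was tested on simulated data with known changes. The simulated spread was drawn separately for each gene, so deviations that many genes share within a library were not covered. The members and lists were chosen with earlier results of these data known. Values in every library are given for regulators, for members with an unadjusted p under 0.05 or separate groups, and for the 3 highest and the 3 most variable of each arm; Fasn and Scd2 were added after their values were seen. Some genes of the further lists are not reported here by name. Msmo1, Erg28 and Hacd3 were found under older symbols. Alternatives (pseudocount, filter, scaling, weights, block, sex term, each library left out) are described in the closing section. Protein sequences were not used here. The limma p-values set the group difference against the spread of these 6 animals within groups, moderated over all tested genes.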

Additional observations from a re-analysis of the deposited data

How the results depend on the processing

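The alternatives were pseudocounts of 0.1 and 5, no filter, a filter of 5 FPKM, 2 other scalings, limma without the trend, array weights, the replicate block, a sex term and each library left out in turn. Over these 16, the unadjusted p of Scd1 lay between 4.21e-05 and 0.0155 and that of Me1 between 0.00267 and 0.120. Their adjusted p values lay between 0.0495 and 1 and between 0.0916 and 1. With array weights 1 member, Scd1, passed the threshold, and 24 genes did in all, against 0 in the main fit. There 6 members had an unadjusted p under 0.05, and the share of all genes was not computed. The fatty acid arm's median with array weights was 0.07 against 0.19. Genes past the adjusted threshold numbered 2 with either pseudocount and 1 with the replicate block, in which 0 members passed. They numbered between 0 and 46 with 1 library left out, 46 without Cre-positive 3. Correlations of deviations were -0.13, 0.03 and -0.11 between animals of the same replicate number, against -0.02 to 0.14 between different numbers. Such values cannot settle whether replicate numbers pair the animals. Of the 32 members, 13 kept their direction in every alternative: Mvk, Mvd, Cyp51, Tm7sf2, Dhcr7, Acaca, Fasn, Elovl6, Scd1, Me1, Srebf1, Srebf2 and Insig2.

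Directions of the other 19 turned in at least 1, and the cause was not tested. With array weights the log2 fold change was -0.03 for Hmgcs1, -0.11 for Fdps, 0.06 for Fdft1, -0.11 for Sqle, -0.06 for Lss, -0.19 for Nsdhl, 0.01 for Stard4, -0.08 for Elovl5 and -0.16 for Scd2. With median-of-ratios scaling it was -0.01 for Hmgcs1, -0.03 for Lss, -0.02 for Nsdhl and -0.00 for Scap. Under quantile normalization it was -0.03 for Idi1, -0.06 for Lss and -0.04 for Nsdhl. With the sex term it was -0.02 for Idi1, 0.00 for Fdft1 and -0.05 for Lss.

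With 1 library left out, sterol arm estimates ran from -0.13 to 0.24 for Acat2, -0.04 to 0.07 for Hmgcs1, -0.18 to 0.06 for Pmvk, -0.11 to 0.26 for Idi1, -0.13 to 0.17 for Fdps, -0.10 to 0.09 for Fdft1, -0.08 to 0.18 for Sqle, -0.21 to 0.21 for Lss, -0.16 to 0.12 for Nsdhl, -0.15 to 0.01 for Hsd17b7 and -0.03 to 0.11 for Ebp. They ran from -0.01 to 0.17 for Acly, -0.05 to 0.14 for Elovl5, -0.16 to 0.29 for Scd2, -0.04 to 0.33 for Fads1, -0.02 to 0.36 for Fads2, -0.02 to 0.08 for Scap and -0.10 to 0.28 for Insig1. Omitting Cre-negative 3 turned 14 of these genes and omitting Cre-positive 3 turned 10. The median of the sterol arm ran from -0.08 to 0.14, of the fatty acid arm from -0.01 to 0.29, of the regulators from -0.02 to 0.18 and of the further fatty acid genes from -0.04 to 0.10, where array weights gave -0.02.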

Other observations

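Genes that move cholesterol and fatty acids into and out of enterocytes varied between libraries in another order than the synthesis genes. They were picked from the list of further pathway genes after their values were seen, and no difference passed the test. Npc1l1, the intestinal cholesterol importer, measured 314, 198 and 169 FPKM in Cre-positive libraries, against 175, 217 and 293 FPKM in Cre-negative libraries. Cre-positive 1 and Cre-negative 3, where both synthesis arms were low, held the highest values. The sterol exporter genes Abcg5 and Abcg8 were also highest in Cre-positive 1, at 148 and 84.8 FPKM. In Cre-negative 3 they stood at 122 and 63.7 FPKM, the highest of that group. The fatty acid transporter gene Cd36 measured 41.2, 22.2 and 16.8 FPKM in Cre-positive and 23.9, 27.2 and 38.4 FPKM in Cre-negative libraries, again highest in these libraries.

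The late sterol gene Sc5d, which adds a ring double bond, measured 56.5, 39.7 and 40.5 FPKM in Cre-positive and 47.5, 47.3 and 56.5 FPKM in Cre-negative libraries. It was highest in Cre-positive 1 and Cre-negative 3, where Sqle and Lss were low.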
